A study of Mus musculus with 12 samples.

Results

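The Klk1b genes are a cluster of mouse glandular kallikreins, and they were described here across medullary thymic epithelial cells (mTECs) with and without Aire or Brg1. Every gene whose symbol begins with Klk1b was taken among probe sets that carry 1 gene symbol in the platform annotation, which gave 11 genes of 22154 in all. The cluster was selected on a measured value, the known difference of Klk1b9 between wild-type mTEChi and mTEClo (defined below), while its members were chosen by symbol. The rule would keep the brightest of a gene's probe sets, but each of the 11 had only 1, so brightness decided nothing. They were Klk1b1, Klk1b5, Klk1b8, Klk1b9, Klk1b11, Klk1b16, Klk1b21, Klk1b22, Klk1b24, Klk1b27 and Klk1b7-ps, that is 10 protein-coding genes and 1 transcribed pseudogene in RefSeq. No filter on low values was applied, and all 11 entered every fit. RefSeq (GRCm38.p6) lists 23 Klk1b symbols, 13 protein-coding and 10 pseudogenes; the other 12 have no probe set of their own under the rule and were not analysed here, apart from Klk1b26, which shares a probe set with a second symbol.

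Tissue kallikreins are secreted serine proteases with trypsin-like or chymotrypsin-like cleavage. Most mammals have a single Klk1 gene, whose product releases kinins from kininogens, and the mouse has in addition the Klk1b duplicates next to Klk1. The submandibular salivary gland is a known rich source of Klk1b products, several of which were first described as partners or processing enzymes of growth factors: Klk1b22 and Klk1b9 encode epidermal growth factor-binding proteins, and Klk1b16 encodes gamma-renin. Some members, among them Klk1b21, Klk1b24 and Klk1b27, are known from Leydig cells of the testis. mTECs transcribe many such genes of peripheral tissues, and Aire is the best-known regulator of that transcription.

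The study hybridised total RNA of sorted cells to 12 single-channel Affymetrix mouse gene arrays. All mice were labelled C57BL/6 and 4 weeks old, and all cells came from thymi that had been digested, enriched for stroma and sorted as living CD45-negative, Epcam-positive, UEA-binding, Ly51-low cells with high (mTEChi) or low (mTEClo) MHC class II. There were 8 groups: Aire+/+ and Aire-/- mice of an Aire line, and Brg1+/+ and Brg1-/- mice of a line that lacks Brg1, the ATPase of SWI/SNF chromatin remodelling complexes encoded by Smarca4, each as mTEChi with 2 arrays and as mTEClo with 1 array. The labels do not say how or in which cells either gene was inactivated, whether animals were pooled, or whether replicates came from separate animals, so every p-value rests on the spread among these samples alone, and that spread may be technical. The RNA is of whole sorted fractions, so fewer cells that transcribe a gene and less RNA per cell cannot be told apart.

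Array medians lay between 5.07 and 5.32 (log2 intensity) and the highest value on any array was 13.78. In mTEChi, Aire itself had readings of 8.04 and 8.80 on the Aire+/+ arrays against 9.01 and 9.73 on those labelled Aire-/-, and Smarca4 read 6.13 and 6.89 in Brg1+/+ and 5.88 and 5.44 in Brg1-/-; whether either probe set lies in the deleted part is not known here, so neither checks the labels. The epithelial genes Epcam (8.41 to 9.29) and Krt14 (10.57 to 12.10) were high on all 12 arrays, and the costimulatory gene Cd80 separated mTEChi (8.96 to 10.45) from mTEClo (6.18 to 6.96). Cd80 had the largest wild-type difference of the 8 listed genes of mature mTECs (3.05), whose median was 1.09. Another of them, Tnfrsf11a, overlapped between mTEChi (6.72 to 7.35) and mTEClo (6.70 to 7.18). Markers of other cells were uneven within each list. Of T cell genes Cd3e read 5.22 to 6.08, but Cd3d read 7.32 to 10.12 in mTEChi and 6.11 to 7.11 in mTEClo, and Cd8b1 and Cd3g reached 8.92 and 8.58. Of fibroblast genes Col1a1 read 5.39 to 5.93 and Dcn 9.22 to 10.92, and Psmb11 of cortical epithelium read 5.80 to 6.79. The summed level of 10 thymocyte markers was 9.10 to 10.39 on 7 mTEChi arrays, 11.22 on Brg1-/- mTEChi replicate 2 and 8.68 to 8.91 in mTEClo (log2 of the summed intensities; 10 of 12 listed were measured). For 8 of 9 markers of dendritic cells, macrophages and B cells it was 9.87 to 10.64 in mTEChi and 9.38 to 9.62 in mTEClo, with Cd79a of B cells at 4.11 to 4.64 but Lyz2 of myeloid cells at 8.55 to 10.08, and for 6 of 6 cortical epithelial markers 9.88 to 10.13 and 10.25 to 10.94. Most of the cortical sum in mTEClo is Ctsl, which read 9.82 to 10.66 there and 8.11 to 9.26 in mTEChi. Its wild-type difference between mTEChi and mTEClo was -1.42 (limma adjusted p = 0.0524). Ccl25 of the same list went the other way (1.61, limma adjusted p = 0.0311). Of the 6 cortical markers 3 were above 0 in that comparison and 3 below, so the sum does not speak for the list. The part of the markers of other cells in the differences between mTEChi and mTEClo given below was not tested.

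The sequence before the start of transcription is shown for 4 members because the members are closely alike there, while their values without Aire, given below, range widely; they were picked after the values were seen. Of the 11 members 10 had an entry in the RefSeq promoter table. Each line gives the 100 bases before the annotated start on the plus strand of GRCm38.p6, from chr7:44112573-44112672 for Klk1b22, chr7:43950566-43950665 for Klk1b8, chr7:43975961-43976060 for Klk1b9 and chr7:43995777-43995876 for Klk1b11, with the motif TTTAAA in capitals.
Klk1b22: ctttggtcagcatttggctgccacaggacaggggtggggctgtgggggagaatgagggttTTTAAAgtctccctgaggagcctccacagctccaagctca
Klk1b8: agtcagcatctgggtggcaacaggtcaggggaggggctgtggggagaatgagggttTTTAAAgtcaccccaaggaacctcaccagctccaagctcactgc
Klk1b9: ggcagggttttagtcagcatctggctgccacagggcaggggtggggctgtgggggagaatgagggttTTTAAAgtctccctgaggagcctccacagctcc
Klk1b11: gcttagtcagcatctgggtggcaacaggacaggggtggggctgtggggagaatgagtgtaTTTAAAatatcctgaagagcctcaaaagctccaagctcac
Over the 250 bases before the start, aligned globally with free end gaps, the 45 pairs of members were 80.7% to 97.7% identical at aligned bases, with a median of 84.4%. Klk1b21 and Klk1b24 were the most alike, with 210 of 215 aligned bases identical, and Klk1b9 and Klk1b22 shared 212 of 243. The motif TTTAAA, which reads the same on both strands, was present in the last 60 bases before the start in 9 of 10 members, against 2.79% of all 32851 promoters in the table; its first base lies at positions -44 to -17 counted back from the start. In Klk1b21 it begins at base 5 after the annotated start, and the common form TATAAA, searched on both strands, was in 0 of 10 members and 3.92% of all promoters in that window. Because the members are closely alike there, the 9 with TTTAAA are not separate observations, and no enrichment was tested. This likeness was measured only before the annotated start. If the transcripts are alike too, a probe set may read RNA of several members. The sequences of the transcripts and probes were not analysed, so the 11 readings are not taken as independent of each other.

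In wild-type mice the cluster was read at higher levels in mTEChi than in mTEClo. Klk1b9 read 11.73 and 11.71 on the Aire+/+ mTEChi arrays, 11.54 and 11.65 on those of Brg1+/+, and 7.23 and 6.81 in the mTEClo arrays of these genotypes. These 4 mTEChi readings ran from 11.54 to 11.73 and all lay above both mTEClo arrays, a difference of 4.64 on the log2 scale (SE 0.253), or 24.9-fold.

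Klk1b22 read 10.13, 9.85, 9.81 and 9.58 in mTEChi and 5.90 and 6.45 in mTEClo, a difference of 3.67 (SE 0.395). Klk1b11 had 12.66, 12.22, 12.59 and 12.13 in mTEChi and 10.00 and 9.78 in mTEClo, a difference of 2.51 (SE 0.248). Both genes thus had groups that did not overlap. The differences of Klk1b27 (2.96), Klk1b8 (2.92), Klk1b1 (2.73), Klk1b7-ps (2.38) and Klk1b16 (2.17) were of like size, and Klk1b21 (1.46), Klk1b5 (1.05) and Klk1b24 (0.57) had the smallest.

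All 4 wild-type mTEChi arrays lay above both mTEClo arrays in 10 of the 11 members, against 11.4% of all genes. The exception was Klk1b24, which read 5.96 on Brg1+/+ mTEChi replicate 1 and 6.06 and 7.13 in Aire+/+ and Brg1+/+ mTEClo. With limma, in 1 model of 8 group means with Benjamini-Hochberg adjustment over 22154 genes, 7 of 11 members were called higher, against 1.93% of all genes; those not called were Klk1b7-ps, Klk1b21, Klk1b5 and Klk1b24. The median over the 11 was 2.51, against -0.10 over all genes. The cluster was singled out with the Klk1b9 difference already known, so these counts are a description and carry no independent weight. All mTEClo arrays carry the replicate number 1; against them, the number 1 mTEChi arrays alone gave member medians of 2.5 in the Aire line and 2.86 in the Brg1 line, and the number 2 arrays 2.20 and 2.41. In the Aire line alone 4 of 11 were called, with 130 of 22154 genes called in either direction, and in the Brg1 line alone 5, with 80 genes.

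**Figure D1:**
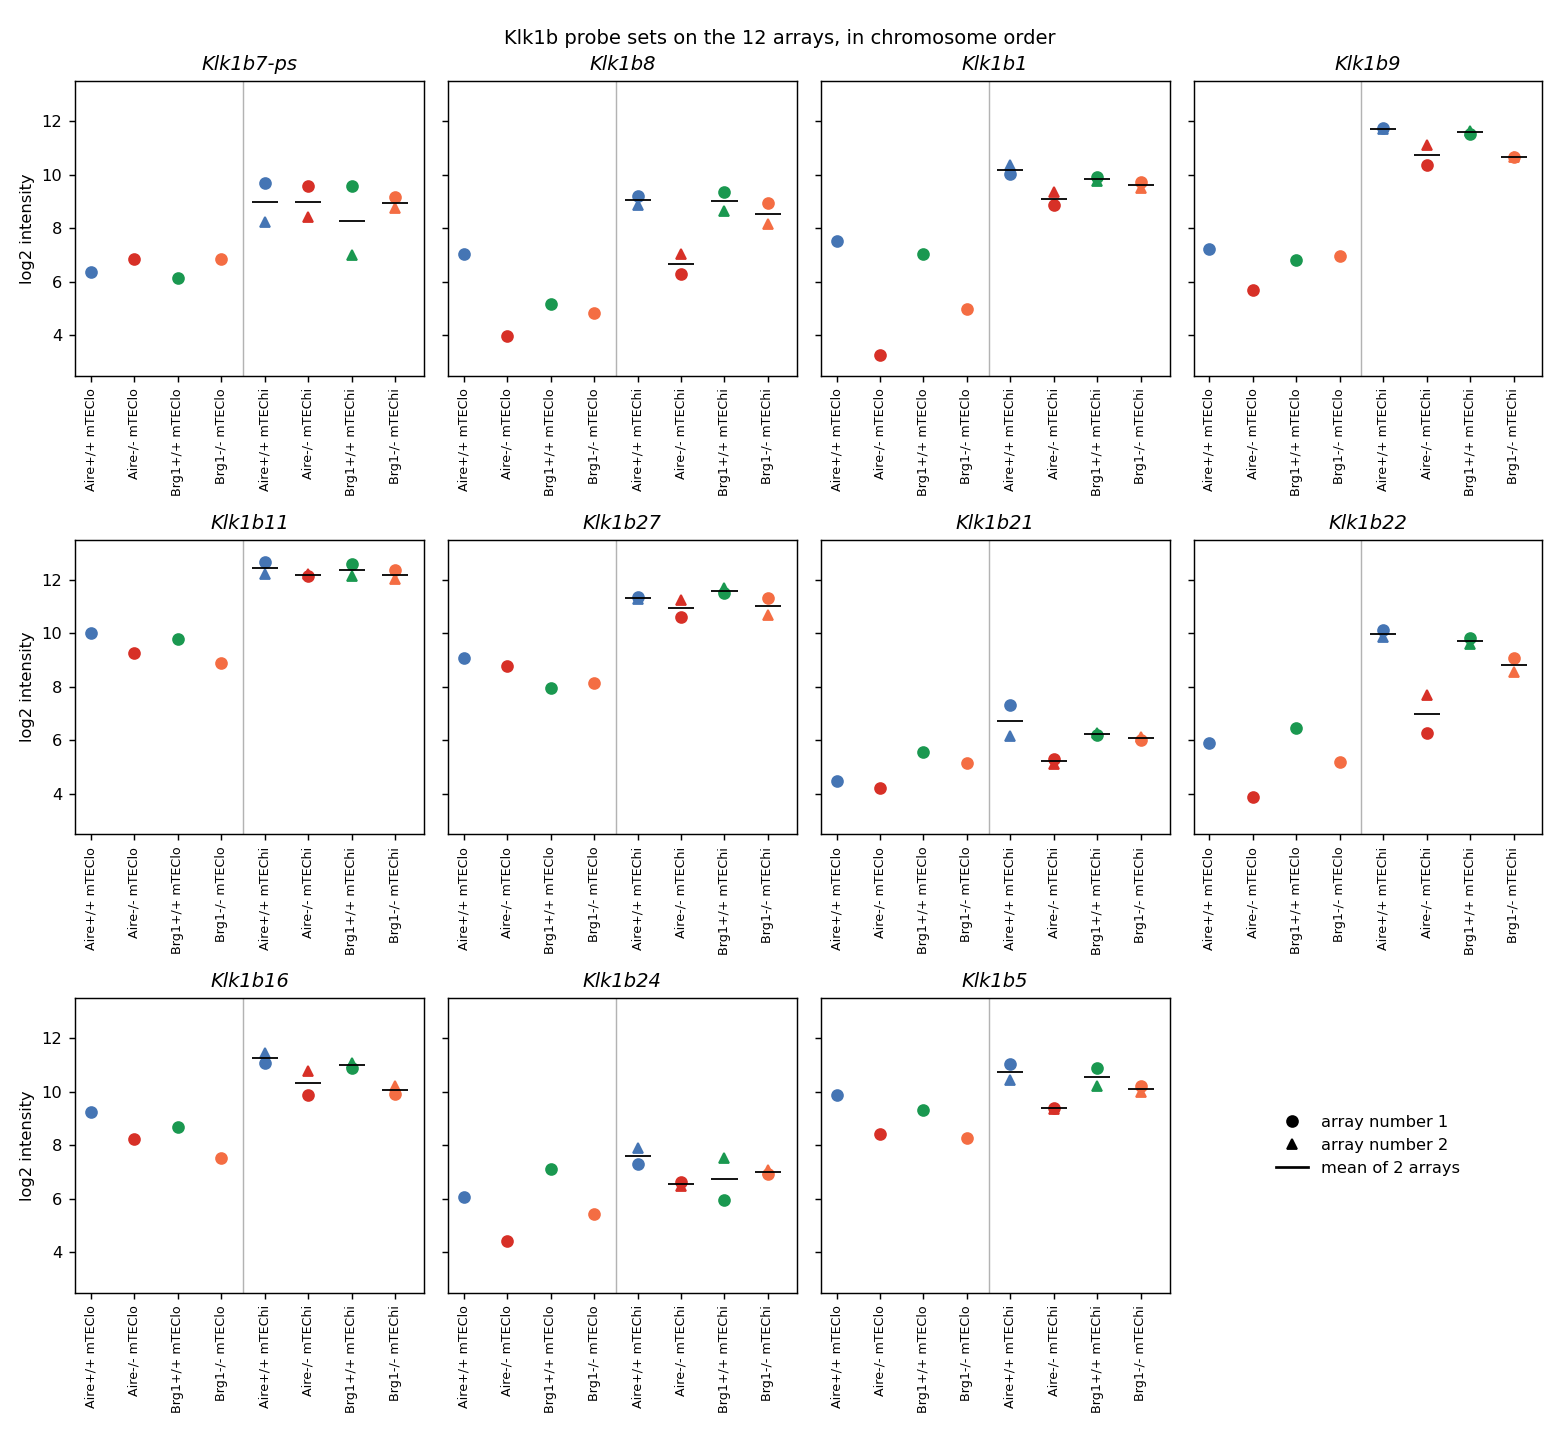
Log2 intensity of the 11 Klk1b probe sets on each array (circles, replicate number 1; triangles, number 2; bars, mean of 2 arrays), with the 4 mTEClo groups left of the grey line and the 4 mTEChi groups right of it; colours mark genotypes. Klk1b9 sits between 10.37 and 11.73 in mTEChi and between 5.69 and 7.23 in mTEClo, and Klk1b22 drops to 6.28 and 7.70 in Aire-/- mTEChi.

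The same difference was examined in Brg1-/- mice, whose arrays were not part of the wild-type comparison. Klk1b9 read 10.68 on both Brg1-/- mTEChi arrays and 6.96 in mTEClo, a difference of 3.72 (SE 0.358, limma adjusted p = 0.0113). Klk1b1 read 9.73 and 9.52 against 5.0, a difference of 4.63 (SE 0.332, limma adjusted p = 0.00732), and Klk1b11 read 12.35 and 12.02 against 8.90, a difference of 3.29 (SE 0.351, limma adjusted p = 0.0162). Klk1b8 (3.73), Klk1b22 (3.62) and Klk1b27 (2.85) were also called, so that 6 of 11 members were higher in mTEChi, against 0.542% of all genes. Both mTEChi arrays lay above the mTEClo array in all 11 members, against 26.2% of all genes, and the median over the members was 2.85 against -0.09 over all genes. The mTEClo readings of Klk1b1 (5.0) and Klk1b8 (4.82) lay below the medians of all 12 arrays, and that of Klk1b22 (5.19) lay among them. These readings are not shown to be above background, so the sizes of the differences of these 3 genes are uncertain. The call of Klk1b22 was narrow (limma adjusted p = 0.0487). With an intensity trend in the limma fit it was lost (limma adjusted p = 0.0546), and 5 members were called. The spread of the lone mTEClo array was taken from the mTEChi groups, and without Brg1-/- mTEChi replicate 1 or replicate 2 the number of members called was 0 while 3 and 0 of all genes were called.

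Without Aire 1 of the 11 members, Klk1b22, fell in mTEChi; 9 others had values below 0 that did not pass the test, and Klk1b7-ps had a value above 0. Klk1b22, an epidermal growth factor-binding kallikrein, read 10.13 and 9.85 in Aire+/+ and 6.28 and 7.70 in Aire-/- mTEChi. It fell by 3.0 on the log2 scale (SE 0.456, 95% interval -4.06 to -1.94, limma adjusted p = 0.0377), to 12.5% of the wild-type level, and both knockout arrays lay below both wild-type arrays. The 1 of 11 members called lower stands against 0.772% of all genes, and 0 of 11 were called higher, against 0.0226% of all genes. The call was lost without Aire+/+ replicate 1 (-2.86, limma adjusted p = 0.211), Aire+/+ replicate 2 (-3.14, limma adjusted p = 0.172) or Aire-/- replicate 1 (-2.29, limma adjusted p = 0.102), and held without Aire-/- replicate 2 (-3.71, limma adjusted p = 0.0203).

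Klk1b8 came next, with 9.22 and 8.88 in Aire+/+ and 6.30 and 7.06 in Aire-/- mTEChi, a difference of -2.37 (SE 0.41, 95% interval -3.33 to -1.41, limma adjusted p = 0.0611). The arrays did not overlap, although the difference missed the threshold. Klk1b21 (-1.52), Klk1b5 (-1.37), Klk1b1 (-1.09), Klk1b24 (-1.05), Klk1b9 (-0.98) and the gamma-renin gene Klk1b16 (-0.95) lay between these and the last members. Klk1b9 read 10.37 and 11.12 without Aire, at 50.9% of the wild-type level, and its interval ran from -1.66 to -0.29 (limma adjusted p = 0.438). Klk1b24 (interval -2.18 to 0.08), Klk1b27 (-0.39, interval -1.13 to 0.36), Klk1b11 (-0.27, interval -0.93 to 0.40) and Klk1b7-ps (0.04, interval -1.97 to 2.04) had intervals that include 0. In chromosome order Klk1b22 lies between Klk1b21 and Klk1b16, and Klk1b8 between Klk1b7-ps and Klk1b1.

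Across the cluster 10 of 11 members were below 0, with a median of -1.05 against 0.06 over all genes, of which 40.8% were below 0. Both Aire-/- arrays lay below both Aire+/+ arrays in 9 of 11 members, against 11.6% of all genes, and 7 of 11 were lower at an unadjusted limma p under 0.05, against 3.94% of all genes. Within array number 1 the median of the members was -1.22 and within number 2 it was -1.01. Klk1b22 differed by -3.85 within number 1 and by -2.15 within number 2, and Klk1b8 by -2.92 and -1.82. The summed level of 10 of 10 fibroblast and endothelial markers was 10.08 and 9.95 in Aire+/+ and 10.69 and 10.72 in Aire-/- mTEChi. Most of that sum is Dcn, which read 9.49 and 9.22 in Aire+/+ and 10.23 and 10.24 in Aire-/- mTEChi. Of the 10 markers 6 were above 0 in this comparison and 4 below, with a list median of 0.10 against 0.06 over all genes. The matrix proteoglycan genes Lum (1.39, limma adjusted p = 0.532) and Dcn (0.88, limma adjusted p = 0.319) had the highest values and Pdgfra (-0.39, limma adjusted p = 1) the lowest. Their part in the values of the cluster was not tested.

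**Figure D2:**
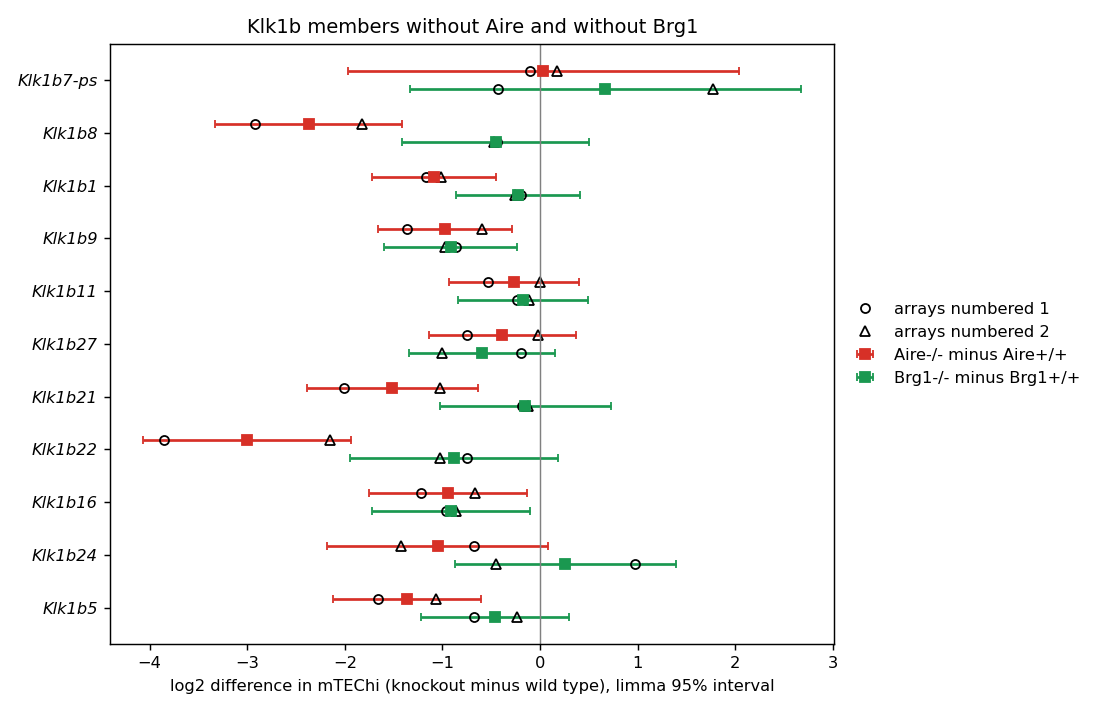
Log2 difference between knockout and wild-type mTEChi for each member (squares, limma estimate with its 95% interval; open circles and triangles, the difference within arrays numbered 1 and 2), in chromosome order from top to bottom. For Aire the estimates run from -3.0 in Klk1b22 to 0.04 in Klk1b7-ps, and for Brg1 from -0.92 in Klk1b9 to 0.67 in Klk1b7-ps.

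In mTEClo the genotypes were compared as 1 array against 1, so the values have no replicate check and no test. Klk1b1 read 7.53 in Aire+/+ and 3.28 in Aire-/- mTEClo, Klk1b8 read 7.06 and 3.97, and Klk1b22 read 5.90 and 3.89. The Aire-/- readings of these 3 genes lay below the medians of all 12 arrays. In all, 10 of 11 members were lower in the Aire-/- array, against 44.0% of all genes. The median over the members was -1.45 against 0.04 over all genes, and 7 members were at least 2-fold lower, against 1.57% of all genes. In the Brg1 line 8 of 11 were lower, against 51.0% of all genes. The median over the members was -0.88 against -0.01 over all genes, and 5 members were at least 2-fold lower, against 1.27% of all genes. Klk1b1 was again the member with the widest gap, at 7.06 with Brg1 and 5.0 without it.

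In the arrays labelled Aire-/- the readings of the cluster were again higher in mTEChi than in mTEClo. Klk1b1 read 8.86 and 9.34 in mTEChi and 3.28 in mTEClo, a difference of 5.82 (SE 0.332, limma adjusted p = 0.00552). The size of that difference is uncertain, since the mTEClo reading lies below the medians of all 12 arrays and is not shown to be above background. Klk1b9 read 10.37 and 11.12 against 5.69, a difference of 5.06 (SE 0.358, limma adjusted p = 0.0101), and Klk1b11 read 12.13 and 12.22 against 9.28, a difference of 2.90 (SE 0.351, limma adjusted p = 0.0252). These 3 of 11 were called higher, against 0.384% of all genes, and both mTEChi arrays lay above the mTEClo array in all 11 members, against 25.6% of all genes. Klk1b22 differed by 3.10 (limma adjusted p = 0.0846) and Klk1b8 by 2.71 (limma adjusted p = 0.0928), both against mTEClo readings below all array medians. Without Aire-/- mTEChi replicate 1 the differences were 6.06 for Klk1b1, 5.43 for Klk1b9 and 2.94 for Klk1b11. Without replicate 2 they were 5.58, 4.68 and 2.85. Calls were lost in both fits, which leave 1 Aire-/- mTEChi array.

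Within the Aire line the median difference between mTEChi and mTEClo over the 11 members was 2.26 in wild type and 2.14 in the knockout. For 11 measured secretory genes of the submandibular gland, a list fixed with earlier results of these data known, the medians were 0.89 and -0.15. The salivary protein gene Bpifa2 had differences of 3.41 with Aire and 0.02 without it, and the demilune cell protein genes Dcpp1, Dcpp2 and Dcpp3 had 3.86, 2.84 and 3.20 with Aire and 0.66, 0.38 and -0.32 without it. In the knockout the 11 Klk1b members ran from 0.96 to 5.82, the 11 secretory genes from -0.62 to 0.66 and 13 other tissue kallikreins from -0.62 to 0.66. In Aire-/- mice Bpifa2 read 4.75 and 4.04 in mTEChi and 4.38 in mTEClo. Dcpp1 read 6.13 and 4.58 against 4.70, Dcpp2 4.18 and 5.49 against 4.46, and Dcpp3 6.55 and 6.74 against 6.96. Array medians lay between 5.07 and 5.32, so several of these readings are not shown to be above background and leave little room for a difference. Among the Klk1b members, Aire-/- mTEClo readings also lay below these medians for Klk1b1 (3.28), Klk1b22 (3.89), Klk1b8 (3.97), Klk1b21 (4.23) and Klk1b24 (4.42). Klk1b21 read only 5.30 and 5.13 in Aire-/- mTEChi. The sizes of the knockout differences of these members are therefore uncertain. The test of the change itself, the Aire effect in mTEChi minus that in mTEClo, called 0 of 11 Klk1b members, 0 of 11 secretory genes and 0 of 22154 genes with limma, and at an unadjusted p under 0.05 it took 1 Klk1b member in the higher direction, Klk1b1 (3.16, SE 0.47, limma adjusted p = 0.216), against 0.636% of all genes. The value for Klk1b1 rests on the same lone mTEClo reading of 3.28, so its size is uncertain too. Its values were -3.39 for Bpifa2 (limma adjusted p = 0.26) and -3.52 for Dcpp3 (limma adjusted p = 0.136). Whether the lists differ from each other was not tested.

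**Figure D3:**
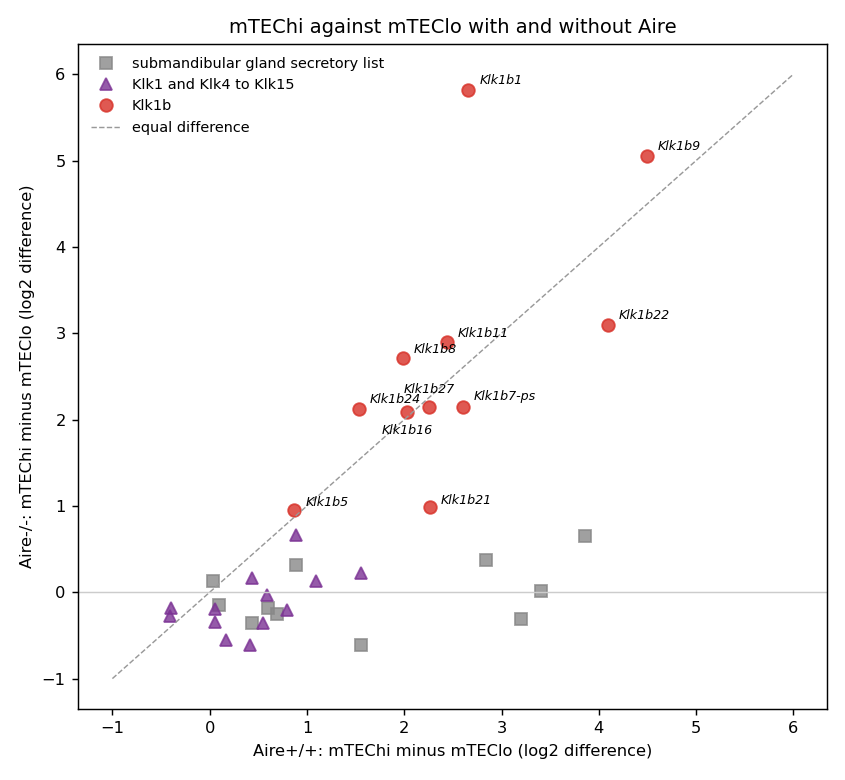
Log2 difference between mTEChi and mTEClo in Aire+/+ (horizontal axis) and in Aire-/- (vertical axis) for the 11 Klk1b members (red circles), 13 other tissue kallikreins (purple triangles) and 11 submandibular gland secretory genes (grey squares). The Klk1b members lie at 0.96 or above on the vertical axis and both other lists at 0.66 or below. Several secretory genes had Aire-/- readings that are not shown to be above background in either fraction. Klk1b1, Klk1b8, Klk1b21, Klk1b22 and Klk1b24 had Aire-/- mTEClo readings below all array medians.

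The other kallikreins and secretory genes were set beside the cluster in the Aire comparison in mTEChi. The 13 other tissue kallikreins are Klk1, which neighbours the Klk1b duplicates, and Klk4 to Klk15, several of which act in skin desquamation. None was called in either direction. In all, 12 of 13 were below 0, against 40.8% of all genes, with a median of -0.74. Those with the smallest adjusted p were Klk6 (-1.34, limma adjusted p = 0.0907), the skin protease gene Klk5 (-1.89, limma adjusted p = 0.108), Klk13 (-1.31, limma adjusted p = 0.161), and Klk8 (-1.07, limma adjusted p = 0.601). Klk1 itself read 12.80 and 12.28 in Aire+/+ against 11.77 and 11.83 in Aire-/- mTEChi. Its wild-type readings overlapped between mTEChi (12.15 to 12.80) and mTEClo (12.49 and 12.30), as did those of Klk1b24 but of no other member. Of the 11 secretory genes 4 were called lower, against 0.772% of all genes. The differences were -7.155 for Dcpp2, -7.02 for Dcpp1, -5.34 for Dcpp3 and -4.03 for Bpifa2 (limma adjusted p = 0.000691, 0.00125, 0.000305 and 0.00245). The list median was -1.23.

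Of 10 measured substrates, receptors and inhibitors of kallikreins, none was called in Aire loss, Brg1 loss or the wild-type comparison of mTEChi with mTEClo. The kininogen gene Kng1, which encodes a kinin precursor, differed by 1.95 (limma adjusted p = 0.143) and the kinin receptor gene Bdkrb1 by 1.24 (limma adjusted p = 0.15) between wild-type mTEChi and mTEClo. Bdkrb1 differed by 0.56 and Kng1 by -0.90 without Aire in mTEChi. Kng1 read 3.20 and 3.04 in wild-type mTEClo, below the medians of all 12 arrays, and 3.63 to 5.61 in wild-type mTEChi. It read 3.04 and 4.24 in Aire-/- mTEChi, so the sizes of its differences are uncertain. In Aire-/- mice Bdkrb1 was 2.04 higher in mTEChi than in mTEClo. The median of this list was -0.16 in Aire loss and 0.03 between the fractions. The list was fixed with earlier results known, and 5 of its 15 genes had no probe set of their own under the rule.

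Loss of Brg1 in mTEChi gave no call for the cluster. With limma 0 of 11 members and 0 of 22154 genes passed; at an unadjusted p under 0.05 there were 2 members, both lower, against 0.709% of all genes, and 0 higher, against 0.65%. These were Klk1b9, which read 11.54 and 11.65 in Brg1+/+ and 10.68 on both Brg1-/- arrays (-0.92, SE 0.293, 95% interval -1.60 to -0.23, limma adjusted p = 1), and Klk1b16, which read 10.89 and 11.09 against 9.93 and 10.23 (-0.91, SE 0.346, interval -1.72 to -0.10). In both genes the arrays did not overlap. Klk1b22 read 9.81 and 9.58 in Brg1+/+ and 9.06 and 8.56 in Brg1-/- mTEChi (-0.89, interval -1.95 to 0.18), and Klk1b8 read 9.37 and 8.64 against 8.93 and 8.17 (-0.46, interval -1.41 to 0.50). Over the cluster 9 of 11 members were below 0, against 49.9% of all genes. The median was -0.46, against 0.00 over all genes, and both knockout arrays lay below both wild-type arrays in 7 of 11, against 9.62% of all genes. Within number 1 the median was -0.43 and within number 2 it was -0.45. Brg1-/- mTEChi replicate 2 is the array with the high thymocyte markers given above, and the part of those markers in these values was not tested.

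The Brg1 effect was then set against the Aire effect in mTEChi. Klk1b22 was 2.12 less lowered by loss of Brg1 than by loss of Aire (SE 0.645, 95% interval 0.61 to 3.62, limma adjusted p = 0.749) and Klk1b8 1.92 less (SE 0.58, interval 0.56 to 3.27, limma adjusted p = 0.734). For Klk1b9 the effects differed by 0.06 (interval -0.91 to 1.03), for Klk1b16 by 0.04 (interval -1.11 to 1.18) and for Klk1b11 by 0.09 (interval -0.86 to 1.04). No member passed the test of this difference, which called 0.135% of all genes in the higher direction; at an unadjusted p under 0.05 it took 3 members in that direction, Klk1b22, Klk1b8 and Klk1b21 (1.37), against 2.67% of all genes. The intervals are wide, so neither a difference nor its absence was shown for these genes.

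**Figure D4:**
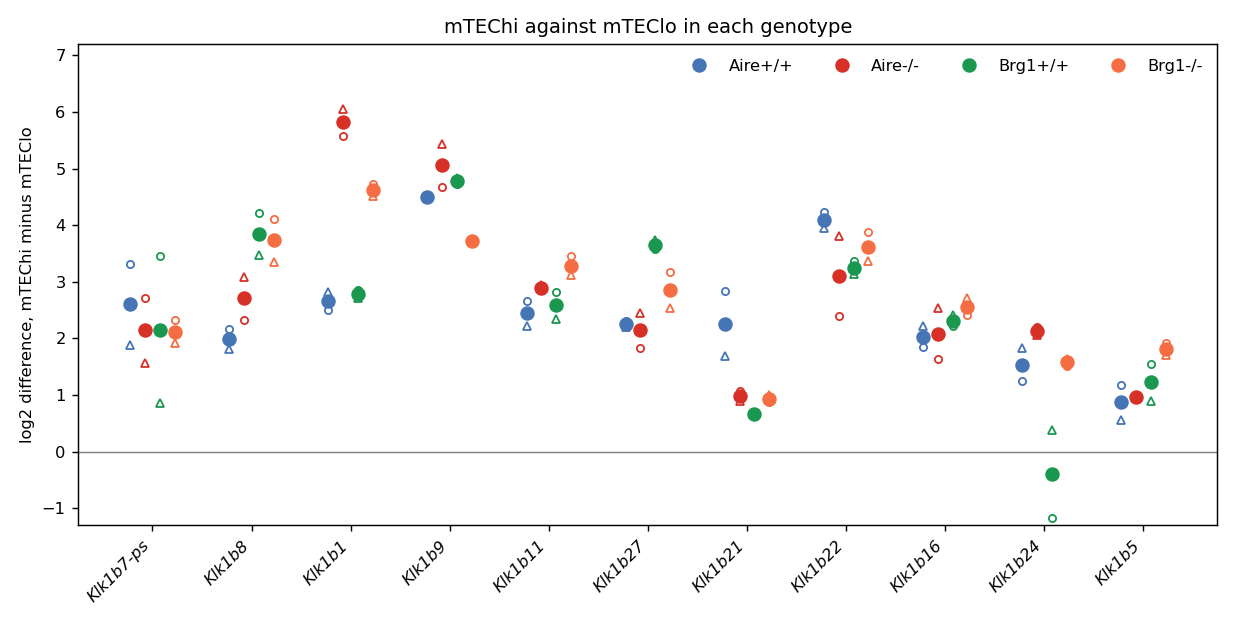
Log2 difference between mTEChi and the lone mTEClo array of each genotype, for each member in chromosome order (filled circles, mean of the 2 mTEChi arrays; open circles and triangles, mTEChi arrays numbered 1 and 2). All filled circles lie above 0 except that of Klk1b24 in Brg1+/+, and Klk1b1 stands at 5.82 in Aire-/- and 4.63 in Brg1-/-, both against mTEClo readings below all array medians.

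The members followed each other across the 12 arrays. Pearson correlations over the 55 pairs had a median of 0.822, from 0.282 for Klk1b7-ps with Klk1b24 to 0.967 for Klk1b9 with Klk1b11. These points share arrays, genotypes and possibly cross-read sequence, and the gap between mTEChi and mTEClo alone raises them, so they are a description. The pseudogene Klk1b7-ps read 9.68, 9.58, 9.59 and 9.16 on the number 1 mTEChi arrays but 8.25, 8.42, 6.99 and 8.76 on the number 2 arrays. Same-numbered mTEChi arrays also deviated together over all genes, and the share of genes that split by number was not counted. In mTEClo, all numbered 1, Klk1b7-ps read 6.14 to 6.86.

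Outside the cluster, the 5 named genes whose profile over the 12 arrays was most like the median of the members were Fabp9 (r = 0.988), Pmp2 (0.969), Gnmt (0.968), Fxyd2 (0.967) and Saa3 (0.961). Fabp9 and Pmp2 encode fatty acid-binding proteins, Gnmt a liver methyltransferase and Saa3 a serum amyloid A. Fabp9 read 12.58 to 12.99 in mTEChi and 10.06 to 11.07 in mTEClo, with 12.58 and 12.82 in Aire-/- mTEChi. The profile of Klk1b9 was most like those of Pmp2 (0.985), Fabp9 (0.984), the chemokine gene Ccl2 (0.969), Serpinb12 (0.969) and Tm4sf20 (0.963). These likenesses rest on 12 arrays of 8 groups and have no p.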

How the data were processed

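Per the labels, total RNA was biotin-labelled and hybridised to single-channel Affymetrix arrays. The deposited table holds 1 linear intensity for each of 33732 probe sets per array; per the submitters' processing notes, the tools included Transcriptome Analysis Console, RMA and Affymetrix Expression Console, whose versions and roles are not given in the sources used here. The deposited intensities are antilogs of log2 values rounded to 0.01. They were put back on the log2 scale as they stand, without a pseudocount or renormalization. Of the probe sets 23491 had 1 gene symbol, 1811 several and 8430 none in the platform annotation; the brightest per gene left 22154 genes. The number of arrays limits the precision, and differences of dim genes are compressed.

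Fits used R 4.3.3 and limma 3.58.1 (lmFit, eBayes): 8 group means, 4 residual and 3.46 prior degrees of freedom, two-sided, Benjamini-Hochberg adjusted p under 0.05 over all genes. SE and intervals are moderated. Steps were tested on simulated arrays. The members and lists were chosen with earlier results of these data known; all members are named, with up to 4 genes per list by smallest adjusted p in Aire loss and others named after their values were seen. Alternatives were another scaling, probe sets averaged, dim genes left out, an intensity trend, a replicate block and arrays left out. Promoter sequences are RefSeq's (GRCm38.p6); alignments used Biopython 1.88.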

Additional observations from a re-analysis of the deposited data

How the results depend on the processing

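The number of Klk1b members called in Aire loss in mTEChi was 1, and became 2 with each array centred on its median and 2 among genes above the median level only. Without single mTEChi arrays, in fits that leave 1 array in a group, the difference of Klk1b22 ran from -3.71 to -2.29. Its call was not kept in all of them. With the replicate number within each line as a block the number called was 5, all lower (Klk1b22, Klk1b8, Klk1b5, Klk1b21 and Klk1b1, against 2.1% of all genes). Over all genes the calls numbered 176, and 531 with the block. Same-numbered mTEChi arrays deviated together (r from 0.552 to 0.657 over genes in the 6 pairs of groups), but with 2 numbers and no label on their meaning they are taken to share only a number. With the block the members called higher in mTEChi than mTEClo were 10 of 11 in wild type (7 without it), 7 in Aire-/- (3 without it) and 8 in Brg1-/- (6 without it), against 4.43%, 1.47% and 2.16% of all genes, and the Aire effect differed between fractions in 1 member, Klk1b1 (3.16, limma adjusted p = 0.0225, against 0.0135% of all genes), whose mTEClo reading without Aire is not shown to be above background. The block also called Klk6, Klk5 and Klk8 lower (limma adjusted p = 0.0296, 0.0353 and 0.0454), Smr3a lower (0.0397) and the fibroblast marker Lum higher (0.0366) in Aire loss. Between wild-type mTEChi and mTEClo it called Kng1, Bdkrb1 and Car6 higher and Agt lower (limma adjusted p = 0.00912, 0.0274, 0.0144 and 0.0449), and for the Aire effect between fractions Dcpp3 and Bpifa2 lower (0.018 and 0.0407). The Kng1 readings in wild-type mTEClo lay below all array medians. So did the Smr3a readings in Aire+/+ and Aire-/- mTEChi, and the sizes of both differences are uncertain. In the wild-type comparison the count was 4 in the Aire line alone and 7 to 8 without single mTEChi arrays. In Aire-/- and in Brg1-/- mice calls were lost without single mTEChi arrays, in fits that leave 1 array in a group. The counts for Brg1 loss and for the Brg1 effect minus the Aire effect were 0 under all 10 and 14 alternatives. No called member changed direction under any alternative run.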

Other observations

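The probe set that carries the symbols Klk1b26 and Egfbp2 was left out of the 11 members because it has 2 symbols. Klk1b26 encodes a prorenin-converting kallikrein. Its readings were 11.94 and 11.39 (log2 intensity) in Aire+/+, 10.96 and 11.42 in Aire-/-, 11.57 and 11.29 in Brg1+/+ and 10.91 and 10.84 in Brg1-/- mTEChi. In mTEClo they were 9.76, 9.28, 8.74 and 7.39 in the same order of genotypes.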
